A study of Mus musculus with 4 samples.

Results

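The interferon regulatory factors are transcription factors that switch on interferon genes and the genes that interferons induce. The family was taken from a written list of 8 genes, Irf1, Irf2, Irf3, Irf4, Irf5, Irf7, Irf8 and Irf9, and all 8 were among the 19938 genes measured. The data are 4 arrays of bone marrow cells from C57BL/6N mice, for which the labels name no engineered allele. The LPS group (replicates 1 and 2) had received 50 µg of lipopolysaccharide, a bacterial outer membrane glycolipid, as an equal mixture from E. coli K12 and S. minnesota. The PBS group (replicates 1 and 3) had received phosphate-buffered saline. Each was given as 1 intraperitoneal injection, and marrow was analysed 8 h later. The labels used here do not give age or sex, nor whether each sample came from 1 mouse, so p-values measure the spread between these samples, which may be partly technical. With 2 arrays per group an exact permutation test cannot give a two-sided p below 0.333. Unless another fit is named, adjusted p-values below come from limma fitted across all genes.

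All family members share an amino-terminal DNA-binding domain that reads GAAA repeats, the core of the interferon-stimulated response element (ISRE). Irf3 and Irf7 rest in the cytoplasm until kinases downstream of Toll-like or cytosolic nucleic acid receptors phosphorylate them, whereupon they induce type I interferon genes. Irf9 gives DNA binding to ISGF3, the complex through which type I interferon acts, while Irf1 is induced by interferon gamma. Irf2 competes with Irf1 for its sites, Irf5 acts downstream of MyD88 in myeloid cells, and Irf4 and Irf8 partner with PU.1 in lymphoid and myeloid development.

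RefSeq promoter windows (GRCm38.p6, 250 bases before to 50 after an annotated start) were searched on both strands. The motifs were the ISRE core GAAANNGAAA, the STAT-binding GAS element TTCNNNGAA, the ETS-IRF composite element GGAANNGAAA and the NF-kappaB consensus. The 8 genes had 11 windows. Over all 32851 windows of this length the ISRE core was present in 3.44%, the GAS element in 8.3%, the composite element in 2.72% and the NF-kappaB consensus in 8.46%. Of the 11 windows, 1 held the ISRE core, 3 the GAS element, 1 the composite element and 2 the NF-kappaB consensus. A match describes the letters and does not show a site in use. The 3 windows that held any motif are printed together with that of Irf7, the member with the largest change. Capitals mark motif matches, and each sequence reads 5′ to 3′ on the strand of its gene.
Irf1 (chr11:53769764-53770063, plus strand): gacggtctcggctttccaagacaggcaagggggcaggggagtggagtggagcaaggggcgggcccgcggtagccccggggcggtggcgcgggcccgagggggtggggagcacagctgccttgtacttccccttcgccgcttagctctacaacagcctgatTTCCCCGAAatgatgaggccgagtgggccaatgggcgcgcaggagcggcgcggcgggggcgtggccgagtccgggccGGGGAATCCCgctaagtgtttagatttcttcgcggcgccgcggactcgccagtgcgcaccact
Irf2 (chr8:46739495-46739794, plus strand): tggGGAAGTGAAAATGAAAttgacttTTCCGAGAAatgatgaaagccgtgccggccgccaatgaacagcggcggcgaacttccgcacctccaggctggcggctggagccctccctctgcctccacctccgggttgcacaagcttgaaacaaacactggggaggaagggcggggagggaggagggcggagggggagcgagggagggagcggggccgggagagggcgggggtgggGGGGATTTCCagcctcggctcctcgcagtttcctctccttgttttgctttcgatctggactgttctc
Irf8 (chr8:120736108-120736407, plus strand): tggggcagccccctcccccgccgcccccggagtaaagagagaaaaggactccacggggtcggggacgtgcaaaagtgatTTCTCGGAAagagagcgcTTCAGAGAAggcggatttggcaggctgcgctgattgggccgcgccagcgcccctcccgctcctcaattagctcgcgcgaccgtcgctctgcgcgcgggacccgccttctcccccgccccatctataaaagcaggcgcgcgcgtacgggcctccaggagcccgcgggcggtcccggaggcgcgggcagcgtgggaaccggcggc
Irf7 (chr7:141266375-141266674, minus strand): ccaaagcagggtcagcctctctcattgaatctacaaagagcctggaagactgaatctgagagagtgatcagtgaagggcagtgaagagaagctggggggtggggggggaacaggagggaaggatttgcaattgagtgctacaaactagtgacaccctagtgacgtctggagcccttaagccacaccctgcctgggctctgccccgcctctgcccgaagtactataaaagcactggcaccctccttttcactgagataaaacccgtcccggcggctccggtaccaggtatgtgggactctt

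In Irf1 the capitals are the GAS match TTCCCCGAA, which begins at base -90 from the start, and the NF-kappaB match GGGGAATCCC, which begins at -13. The Irf2 window held all 4 motifs. The composite match GGAAGTGAAA (from -247) overlapped the ISRE match GAAAATGAAA (from -241), followed by the GAS match TTCCGAGAA (from -224) and the NF-kappaB match GGGGATTTCC (from -17). The Irf8 window held 2 GAS matches, TTCTCGGAA (from -171) and TTCAGAGAA (from -153). None of the 4 motifs was in the windows of Irf3, Irf4, Irf5, Irf7 and Irf9, nor in the second windows of Irf1 and Irf8. The windows of Irf5 and Irf7 were set on starts inside the annotated gene, whose first bases are chr6:29526130 and chr7:141266499. The 250 bases before those first bases were therefore not fully searched.

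After LPS, Irf7, Irf1 and Irf9 rose and no member fell. Irf7 was 3.60-fold higher, Irf1 2.47-fold and Irf9 1.48-fold. The other 5 members, Irf2, Irf3, Irf4, Irf5 and Irf8, did not pass the test. Thus 3 of 8 members rose, where 2.39% of all genes were called higher, 1.27% lower and 3.66% in all. The median log2 fold change was 0.09 over the 8 members and -0.0081 over all genes.

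Irf7, the amplifier of type I interferon production, had log2 values of 12.16 and 12.18 in LPS replicates 1 and 2, against 10.42 and 10.23 in PBS replicates 1 and 3. Both LPS arrays stood well above both PBS arrays, and the LPS arrays lay close together. The means were 12.17 ± 0.019 in LPS and 10.32 ± 0.14 in PBS (SD, n = 2 each). This was a log2 fold change of 1.85 (SE 0.0992, 95% interval 1.62 to 2.08, limma adjusted p = 5.71e-05), which ranked 51 among the 19938 genes from the largest rise down.

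Irf1, the activator that interferon gamma and inflammatory cytokines induce, had log2 values of 11.08 and 11.23 in the LPS arrays and 9.77 and 9.94 in the PBS arrays. The groups did not overlap, and the gap between them was much wider than the spread within either. Irf1 averaged 11.16 ± 0.11 in LPS and 9.86 ± 0.12 in PBS (SD, n = 2 each), a log2 fold change of 1.30 (SE 0.104, 95% interval 1.06 to 1.54, limma adjusted p = 0.000427). It ranked 105 among all genes on the same scale. A second probe set named for Irf1, which the annotation pairs with 1 cDNA accession and no RefSeq transcript, read 7.73 and 7.73 in LPS and 7.64 and 7.59 in PBS. Its log2 fold change of 0.12 did not pass (adjusted p = 0.677 over all probe sets), and the mean of both probe sets gave 0.71 (adjusted p = 0.0043).

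Irf9, the DNA-binding subunit of ISGF3, had log2 values of 10.86 and 10.96 in LPS and 10.31 and 10.39 in PBS. Again the LPS arrays were the higher pair, by a smaller margin. The means were 10.91 ± 0.07 in LPS and 10.35 ± 0.06 in PBS (SD, n = 2 each), which gave a log2 fold change of 0.56 (SE 0.0917, 95% interval 0.35 to 0.78, limma adjusted p = 0.0167). The rise of Irf9 did not pass with every probe set of the array in the fit (adjusted p = 0.082). Leaving out LPS replicate 2, which leaves 1 LPS array, gave a change of 0.51. The 95% intervals of Irf7, Irf1 and Irf9 did not overlap one another, although the differences between the genes were not themselves tested.

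**Figure D1:**
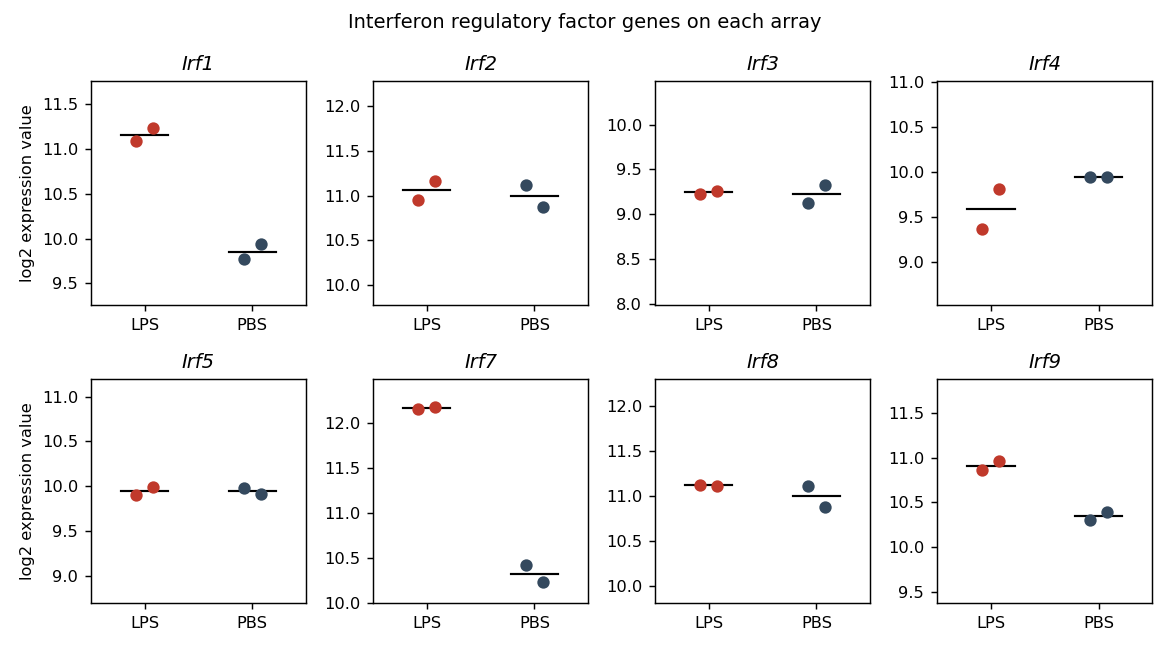
Log2 expression value (vertical axis, the same span in every panel) of each interferon regulatory factor gene on the 2 LPS arrays (red) and the 2 PBS arrays (dark blue). Points are arrays and lines are group means; Irf1, Irf7 and Irf9 are higher in LPS, and the arrays of Irf2, Irf3, Irf5 and Irf8 overlap between groups.

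Irf3, which is activated by phosphorylation of protein already present, had log2 values of 9.23 and 9.26 in LPS and 9.13 and 9.32 in PBS. The LPS arrays fell between the PBS arrays. The log2 fold change was 0.02 (95% interval -0.21 to 0.25, limma adjusted p = 0.965), so the interval reached from 0.863-fold to 1.19-fold. Irf5, known for inducing inflammatory cytokines in macrophages, read 9.90 and 9.99 in LPS and 9.99 and 9.92 in PBS. These arrays overlapped as well, and the log2 fold change of -0.0058 had a 95% interval of -0.22 to 0.20 (adjusted p = 0.99).

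Irf2, which represses at Irf1 sites, had log2 values of 10.95 and 11.16 in LPS and 11.12 and 10.88 in PBS. The spread within each group exceeded the difference of 0.06 between them (95% interval -0.21 to 0.34, adjusted p = 0.891). Irf8, which directs monocyte and dendritic cell development, read 11.13 and 11.11 in LPS and 11.12 and 10.88 in PBS. PBS replicate 3 was the lowest array and the other 3 lay together, and the log2 fold change was 0.12 (95% interval -0.12 to 0.36, adjusted p = 0.676).

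Irf4, a regulator of B-cell and plasma cell differentiation, had the most negative change of the family. Its log2 values were 9.37 and 9.81 in LPS and 9.95 and 9.94 in PBS. Both LPS arrays lay below the PBS arrays, but LPS replicate 1 lay much further below than LPS replicate 2. The means were 9.59 ± 0.31 in LPS and 9.95 ± 0.00091 in PBS (SD, n = 2 each). The log2 fold change of -0.36 (SE 0.142, 95% interval -0.69 to -0.028) did not pass (limma adjusted p = 0.271, unadjusted p = 0.0369). Leaving out LPS replicate 1 gave -0.14, and leaving out LPS replicate 2 gave -0.58, each with 1 LPS array left. Over the family, the groups did not overlap in 4 of 8 genes, 3 with LPS above and 1 with LPS below. Over all genes that share was 44.9% (20.4% with LPS above and 24.5% with LPS below), so 4 of 8 is near the background.

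**Figure D2:**
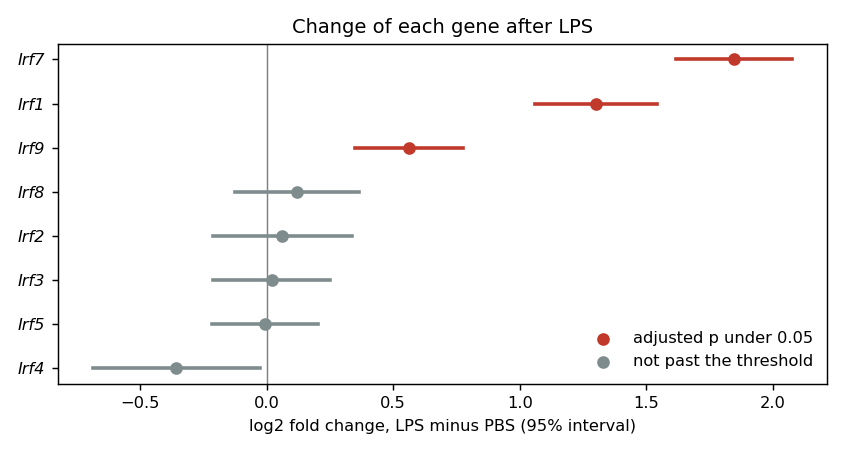
Log2 fold change, LPS minus PBS, of each of the 8 genes (points) with its 95% interval from limma (bars); red marks an adjusted p under 0.05. Irf7 (1.85), Irf1 (1.30) and Irf9 (0.56) lie to the right of 0, and the intervals of Irf2, Irf3, Irf5 and Irf8 include 0.

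B-cell markers were lowest on the same array as Irf4, though not B-cell markers alone. As the deviation from the mean of the 4 arrays, Irf4 was at -0.40 on LPS array 1 and 0.04 on LPS array 2, against 0.18 in both PBS arrays. The median deviation of 9 mature B-cell markers was -0.32 and 0.10 on LPS arrays 1 and 2, against 0.16 and 0.10 on PBS arrays 1 and 3. The same markers, summed on the linear scale, came to 14787 and 19875 in LPS and 19678 and 19639 in PBS, and 2 of the 9, Cr2 and Fcer2a, fell. Erythroid markers also had their lowest median deviation on LPS array 1 (-0.148, against -0.064 on LPS array 2). Plasma cell markers had their highest there (0.13, against 0.11). Plasmacytoid dendritic cell markers (-0.012, against 0.005) and resident macrophage markers (-0.166, against -0.165) were lowest there too. These last lists differed little between the 2 LPS arrays.

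Early B-cell markers summed to 10678 and 13154 in LPS and 13654 and 14882 in PBS, with 1 fall among 8, that of Dntt. Plasma cell markers summed to 5125 and 4921 in LPS and 4242 and 4652 in PBS, with 0 of 7 past the threshold. Without Xbp1 the other 6 summed to 1905 and 2076 in LPS and 1937 and 1994 in PBS and overlapped. Of these 6, Prdm1 (0.35), Derl3 (0.27) and Jchain (0.26) had positive changes. Mzb1 (-0.34), Sdc1 (-0.22) and Tnfrsf17 (-0.024) had negative changes, and none of the 6 passed. In bulk marrow, fewer cells of a type and less RNA per cell cannot be told apart, and the part of B cells in the Irf4 values was not tested.

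Irf8 is used by monocytes and dendritic cells, whose markers were compared next. Conventional dendritic cell markers summed to 1951 and 1855 in LPS and 2609 and 2556 in PBS, with 1 fall among 8, that of Cd209a. Plasmacytoid dendritic cell markers summed to 7840 and 9910 in LPS and 9196 and 8871 in PBS, with 0 of 7 past the threshold. Spib and Ly6d were the brightest of these and weigh most in that sum. Their log2 values were 11.39 and 11.97 in LPS and 11.86 and 11.60 in PBS for Spib. Ly6d had 10.83 and 11.43 in LPS and 11.15 and 11.12 in PBS. Monocyte markers summed to 17461 and 15868 in LPS and 14965 and 16704 in PBS, with 1 rise among 8, that of Ms4a6c. The plasmacytoid and monocyte sums overlapped between groups. Most of the difference in the conventional sum was Cd209a alone, which came to 128 and 133 in LPS and 489 and 577 in PBS on the linear scale. The other 7 markers summed to 1823 and 1723 in LPS and 2120 and 1980 in PBS, and none of them passed.

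Over all 12 cell type lists the median log2 fold change ran from -0.33 (resident macrophages) to 0.26 (plasma cells), but single markers changed by as much as the family did. Of 95 distinct markers, 2 rose and 13 fell, where 2.39% of all genes were called higher and 1.27% lower. The falls included the macrophage genes Cd163 (-2.41) and Mrc1 (-1.72), the endothelial gene Stab2 (-1.26), the neutrophil gene Ly6g (-1.14) and the natural killer cell gene Klrd1 (-0.89). The 2 rises were the macrophage gene Adgre1 (0.56) and the monocyte gene Ms4a6c (0.49). Other markers of the same lists had positive changes that did not pass, such as endothelial Emcn (0.52) and Cdh5 (0.36). Natural killer cell Klrk1 (0.43) and Il2rb (0.40) were also positive without passing. The part of cell numbers in the changes of Irf7, Irf1 and Irf9 was not tested. All 12 neutrophil markers, all 7 erythroid markers and 8 of 9 mature B-cell markers had a mean above the median of all genes. So had all 8 monocyte markers, all 6 endothelial markers and 7 of 8 resident macrophage markers, against 1 of 7 natural killer cell markers. Such levels are common to many lists and do not identify the tissue.

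**Figure D3:**
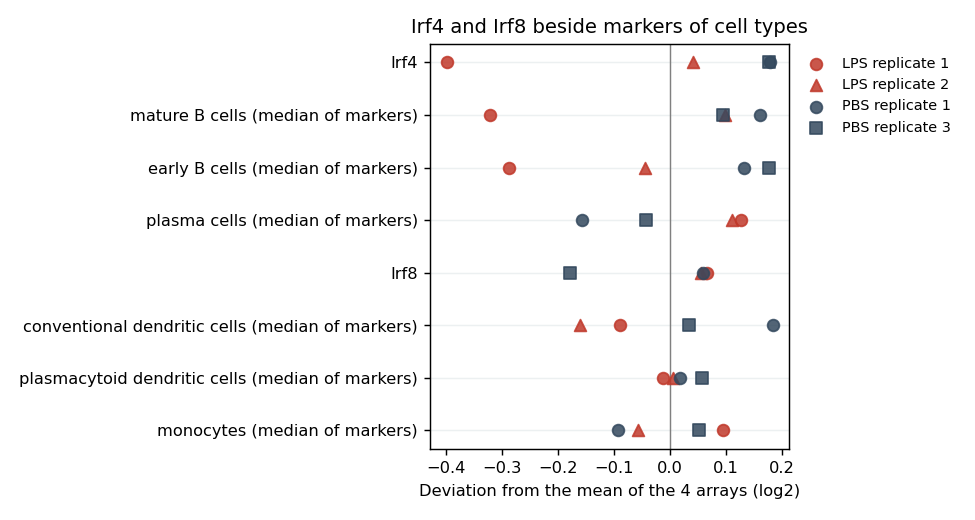
Deviation of each array from the mean of the 4 arrays (log2, horizontal axis) for Irf4, for Irf8 and for the median marker of 6 cell types. Circles and triangles in red are LPS replicates 1 and 2, and circles and squares in dark blue are PBS replicates 1 and 3; LPS replicate 1 is lowest for Irf4 (-0.40), mature B-cell markers (-0.32) and early B-cell markers (-0.29).

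Around the family, 8 lists of sensors, partners and targets held 89 measured genes, of which 42 rose and 0 fell. Some genes stood in more than 1 list. Over all genes, 2.39% were called higher and 1.27% lower, and all 8 lists were written with earlier results of these data known. Of 17 measured sensors, adaptors and kinases that act upstream of Irf3, Irf5 and Irf7, 7 rose and 0 fell, with a median log2 fold change of 0.29. The cytosolic RNA sensor gene Ifih1 had log2 values of 11.03 and 11.12 in LPS and 9.70 and 9.50 in PBS, a change of 1.47 (SE 0.102, adjusted p = 0.000206). The endosomal RNA receptor gene Tlr3 (1.27), the RNA sensor gene Ddx58 (1.19) and Ikbke (0.86), which encodes a kinase of Irf3 and Irf7, rose too, with adjusted p-values of at most 0.00163. Tbk1, which encodes the kinase related to Ikbke, had 0.19 (adjusted p = 0.405), and Tlr4, which encodes the LPS receptor itself, had -0.014 (adjusted p = 0.978).

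Of 14 measured interferons, interferon receptors, Janus kinases and STAT factors, 1 rose, 0 fell and the median was 0.06. The gene that rose was Stat2, which encodes a partner of Irf9 in ISGF3. Its log2 values were 10.99 and 11.11 in LPS and 9.82 and 9.60 in PBS, a change of 1.33 (SE 0.107, adjusted p = 0.00043). The 5 interferon genes measured did not pass. Ifnb1 had 6.02 and 6.04 in LPS and 5.84 and 5.96 in PBS (0.13, adjusted p = 0.578), and Ifng had 7.51 and 7.48 in LPS and 7.32 and 7.24 in PBS (0.21, adjusted p = 0.297). All Ifnb1 values lay below the lower quartile of genes on the arrays (6.66 to 6.72), and no background level was used, so a small change of Ifnb1 could not be judged.

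Of 12 DNA-binding partners of Irf4 and Irf8, 3 rose and 0 fell (median 0.16). These were Jun (1.14), Batf2 (0.80) and Batf (0.59), members of the AP-1 and BATF families, with adjusted p-values of at most 0.0147. The ETS-family partner genes Spi1, which encodes PU.1 (0.18), and Spib (-0.05) did not pass. Of 9 corepressors and regulators of IRF proteins, 4 rose and 0 fell (median 0.18). Usp18, the brake on the type I interferon receptor, had log2 values of 12.17 and 12.24 in LPS and 10.04 and 10.00 in PBS, a change of 2.18 (adjusted p = 1.93e-05). Trim21 (1.01), a ubiquitin ligase that acts on several IRF proteins, Tnfaip3 (0.89), an inhibitor of NF-kappaB signalling, and Socs1 (0.85), an inhibitor of Janus kinases, rose as well, with adjusted p-values of at most 0.00427. The Irf2-binding corepressor genes Irf2bp1 (-0.07) and Irf2bp2 (-0.0067) did not pass.

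All 16 measured targets of the Irf9-containing ISGF3 complex rose, with a median of 1.76, in a list written when the rise of interferon-stimulated genes was already known. Mx1, an antiviral GTPase gene, had log2 values of 9.88 and 10.16 in LPS and 7.39 and 7.60 in PBS, a change of 2.52 (adjusted p = 4.28e-05). The antiviral genes Ifit3 (2.26), Ifit1 (2.22) and Ifit2 (2.20) followed. Of 13 Irf1 targets, 9 rose and 0 fell, with a median of 0.85. The chemokine gene Cxcl10 had 12.86 and 13.22 in LPS and 9.33 and 9.24 in PBS (3.76, adjusted p = 1.08e-05), and Cxcl9 (3.41), the peptide transporter gene Tap1 (1.10) and Nos2 (1.05), the gene of inducible nitric oxide synthase, followed. Il15 (-0.11, adjusted p = 0.659) and the class II transactivator gene Ciita (-0.19, adjusted p = 0.526), also Irf1 targets, did not pass.

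Of 9 Irf8 targets, 3 rose and 0 fell (median 0.09), namely the cytokine gene Il18 (0.91), Tlr9 (0.68), the receptor of unmethylated DNA, and Ctsc (0.66), the protease that activates granule enzymes. Adjusted p-values of these 3 were at most 0.0382. Klf4, a monocyte transcription factor gene, had 8.30 and 7.97 in LPS and 8.77 and 8.51 in PBS, and its change of -0.51 did not pass (adjusted p = 0.109). Of 5 Irf5 targets, Il6 (1.46, adjusted p = 9.56e-05) and Tnf (1.44, adjusted p = 0.000343) rose, and Il12a, Il12b and Il23a had changes of 0.18, 0.09 and -0.19 that did not pass. The differences between lists were not tested.

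**Figure D4:**
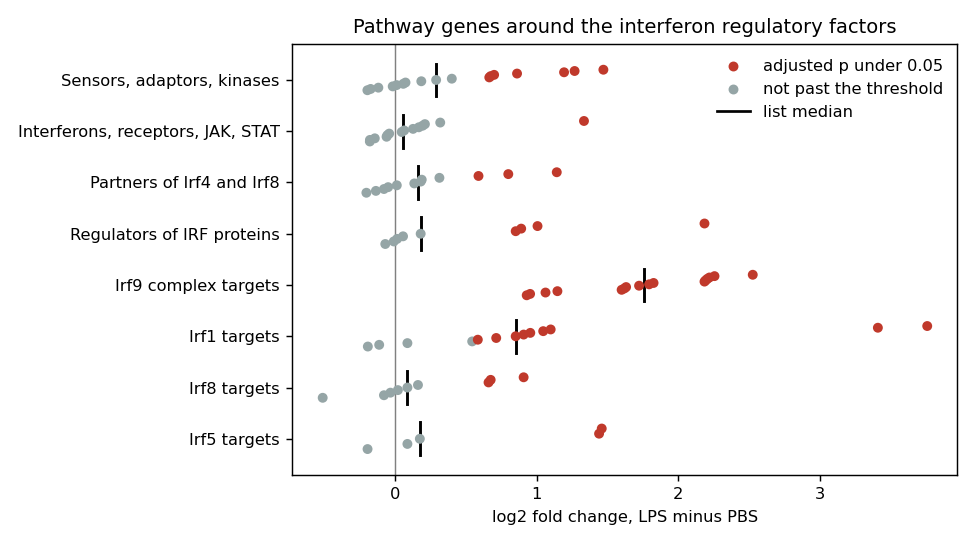
Log2 fold change, LPS minus PBS, of every measured gene (points) in 8 lists of genes around the family, with the list median as a black line; red marks a limma adjusted p under 0.05. The median is 1.76 for Irf9 complex targets and 0.85 for Irf1 targets, and between 0.06 and 0.29 for the other 6 lists.

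The nearest profiles to each changed member were sought among 16992 other named genes, by the Euclidean distance over the 4 arrays after centring each gene on its own mean. With 4 arrays this describes only the size and spread of the change. Nearest to Irf7 were the antiviral gene Oasl1 (distance 0.109), Parp12 (0.113), an interferon-induced ADP-ribosyltransferase gene, and Cd14 (0.114), which encodes the LPS co-receptor. Nearest to Irf1 were the metallothionein gene Mt2 (0.068), the apolipoprotein L gene Apol6 (0.0794) and Fscn1 (0.0801), which encodes the actin-bundling protein fascin. Nearest to Irf9 were the mitotic kinase gene Nek6 (0.0213), the ATP-gated channel gene P2rx3 (0.0573) and the chymotrypsin-like protease gene Ctrl (0.0717). The 3 neighbours of each had log2 fold changes of 1.79 to 1.94 for Irf7, 1.24 to 1.32 for Irf1 and 0.50 to 0.56 for Irf9.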

How the data were processed

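RNA of each bone marrow sample was hybridised to its own Mouse Gene ST array. The authors deposited log2 expression values per probe set, made with RMA, per the submitters' processing notes (version not given in the sources used here). That the scale is log2 follows from the values, which ran from 2.76 to 14.52 over 35556 probe sets. RMA brings the arrays to near-equal distributions, so a shift shared by most genes cannot be seen.

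Probe sets were named through the platform annotation. A single symbol was given for 21789 of them, several for 1621, which were left out, and none for 12146. Each of the resulting 19938 genes was read from its brightest probe set. All 4 arrays entered 1 limma 3.58.1 fit (R 4.3.3; lmFit, then eBayes; two-sided; 5.59 prior and 2 residual degrees of freedom), with no filter and no covariate. The threshold was an adjusted p under 0.05, by the method of Benjamini and Hochberg across all 19938 genes. Intervals are the 95% intervals of that fit. In simulated data of the same 19938 genes and 4 arrays, a change of 0.5 log2 was recovered for 19.6% of changed genes, a change of 1 for 94.9% and a change of 2 for 99.9%. There, 200 genes were changed and variances were drawn from the prior that limma had fitted, with independent normal noise. In the data 730 genes passed and the noise may differ, so recovery may differ too. Figures used matplotlib 3.10.9.

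The members and the 8 pathway and 12 cell type lists were chosen with earlier results of these data known. Named were all 8 members, up to 4 passing genes per pathway list with the largest absolute change (or the 2 largest where none passed), and the 3 nearest profiles of each changed member. Further genes, such as those that did not pass, were named after their values were seen. Alternatives covered the choice of probe sets, normalization, dim genes, variance model, threshold and each array left out. Promoter windows were those of RefSeq on GRCm38.p6, found for all 8 members.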

Additional observations from a re-analysis of the deposited data

How the results depend on the processing

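Irf7 and Irf1 kept their direction under all 12 alternatives. Where both groups kept 2 arrays, they passed except in the linear model with no moderation (adjusted p = 0.284 for Irf7 at 1.85 and 0.327 for Irf1 at 1.30). There 0 genes, 0 members and 0 pathway list genes passed, with 2185 genes and 3 members at an unadjusted p under 0.05, so the calls rest on the variance that limma shares between genes. Irf9 (0.56) did not pass there (adjusted p = 0.365), with every probe set in the fit (adjusted p = 0.082) or at an adjusted p under 0.01 (adjusted p = 0.0167). Leaving out 1 array gave Irf9 0.51 to 0.61, Irf7 1.75 to 1.94, Irf1 1.21 to 1.39, Irf4 -0.58 to -0.14, Irf8 0.0015 to 0.24, Irf2 -0.058 to 0.18, Irf3 -0.077 to 0.12 and Irf5 -0.048 to 0.036. Without LPS replicate 2, Irf9 was at 0.51 and Irf4 at -0.58. Each fit with 1 array left out compares 1 array with 2, so only its change is given. Irf5 was 0.00083 with each array centred on its median.

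Over all genes, 730 passed (476 higher, 254 lower). At an adjusted p under 0.01 the number was 344 (286 higher, 58 lower). With every probe set in the fit, 418 of 35556 probe sets passed (355 higher, 63 lower). That count is of probe sets, including those without a single symbol, and cannot be set against 730 genes. Leaving out 1 array gave 528 (without LPS replicate 2) to 1119 (without PBS replicate 3) in all, 385 to 696 higher and 127 (without LPS replicate 2) to 423 (without PBS replicate 3) lower, with 382 lower without PBS replicate 1. No paired analysis was possible because the groups share fewer than 2 replicate numbers. The number of arrays limits the precision, and signal was not set against background.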
